A study of Mus musculus with 12 samples.

Results

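The 9 genes described here encode cytokines of the colonic epithelium and the receptor chains through which it receives interleukin 17 (IL-17) and interleukin 22 (IL-22). They are Il18, Il1rn, Il15, Tslp, Il22ra1, Il10rb, Il17ra, Il17rc and Il17re. They were chosen by symbol from the 46517 genes listed in each count table, and all 9 symbols were found once. Of these, 8 had enough reads to be tested for differences, and Tslp did not. RNA sequencing gave read counts for colonic intestinal epithelial cells of C57BL/6 mice aged 7 to 9 weeks. The 4 groups of 3 samples were wild-type mice (WT) left untreated, WT mice given dextran sulfate sodium (DSS) for 48 h, Nfkb2-/- mice (knockout, KO) left untreated, and Nfkb2-/- mice given DSS for 48 h. DSS is a polysaccharide that injures the colonic epithelium, and Nfkb2 encodes the p100/p52 subunit of NF-kB. The samples are called biological replicates in the series' design text, and the labels name no promoter, Cre line or cell type to which the deletion is limited. The cells were released from colon pieces with EDTA, and per the labels' protocols most but not all of them were CD45.2-EpCAM+ by flow cytometry.

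IL-18 and the IL-1 receptor antagonist encoded by Il1rn belong to the IL-1 family. IL-18 is made as an inactive precursor that caspase-1 cleaves, and the colonic epithelium stores it constitutively. The product of Il1rn occupies the IL-1 receptor without signalling and so blocks IL-1α and IL-1β. IL-15 sustains intraepithelial lymphocytes, and TSLP is an alarmin of barrier tissues. IL-17A and IL-17F signal through IL-17RA paired with IL-17RC, and the epithelial cytokine IL-17C signals through IL-17RA paired with IL-17RE. IL-22 binds IL-22RA1 paired with IL-10RB and acts mainly through STAT3, and IL-10RB also serves the receptors of IL-10 and of type III interferons. The IL-17 and IL-22 ligands come mainly from lymphocytes, so that epithelial cells carry the receptors and respond with chemokines and antimicrobial proteins.

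Total counts were 5595909 to 8117740 per sample, and 3 counts, taken as the floor of detection, corresponded to 0.356 to 0.530 CPM (counts scaled to a common library total with TMM factors). Floors cover counting error only. Nfkb2 itself had 211 to 346 counts in the 6 WT libraries and 87 to 143 in the 6 KO libraries, so reads of the gene remained in KO. Its mean log2 CPM was lower in KO by a difference of -1.31 (exact two-sided permutation test, p = 0.00216, the smallest the 924 rearrangements allow). The epithelial marker Epcam had 13012 to 23708 counts per library, and Cd79a, Col1a1 and Pecam1 at most 7, 5 and 28. The leukocyte marker Ptprc had 45 to 81 counts in untreated WT and 89 to 112 in WT under DSS. In untreated KO it had 180 to 297, and in KO under DSS 195 to 276, so all 6 KO libraries lay above all 6 WT libraries. The T cell marker Cd3e had 2 to 4, 13 to 16, 19 to 34 and 23 to 59 counts in the same order. Cd68, a myeloid marker, had 1 to 13, 16 to 22, 2 to 14 and 18 to 26. One library stood apart: untreated WT replicate 3 differed from its 2 fellow replicates by a chi-square per degree of freedom of 18.4 and 27.0, against 13.7 between the latter. It also had 374 CPM of the antimicrobial lectin gene Reg3b against 81.3 and 75.6 in the other untreated WT libraries. Results that rest on it are given with and without it. All WT libraries carry lower library numbers in the labels than all KO libraries, so library order and genotype cannot be told apart.

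Il1rn rose under DSS in both genotypes, 1.60-fold in WT and 1.61-fold in KO, and had the smallest adjusted p of the 8 tested genes in each. The untreated WT samples had 180, 146 and 124 CPM, and those of WT under DSS had 235, 248 and 236 CPM. In untreated KO the values were 197, 207 and 205 CPM, and in KO under DSS 344, 324 and 313 CPM. The 4 groups did not overlap: untreated WT was lowest, then untreated KO, then WT under DSS, and KO under DSS was highest. In WT the log2 fold change with DSS was 0.68, with an SE of 0.12 and a 95% interval of 0.42 to 0.93 (edgeR adjusted p 0.00235). For KO it was 0.69, with an SE of 0.12 and a 95% interval of 0.44 to 0.94 (edgeR adjusted p 0.00419). The DSS change in KO minus that in WT was 0.01 on the log2 scale with a 95% interval of -0.34 to 0.37. With 3 samples per group, that interval leaves room for a difference in response of either sign. Both calls were kept in each of 12 fits that left out 1 library at a time.

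**Figure D1:**
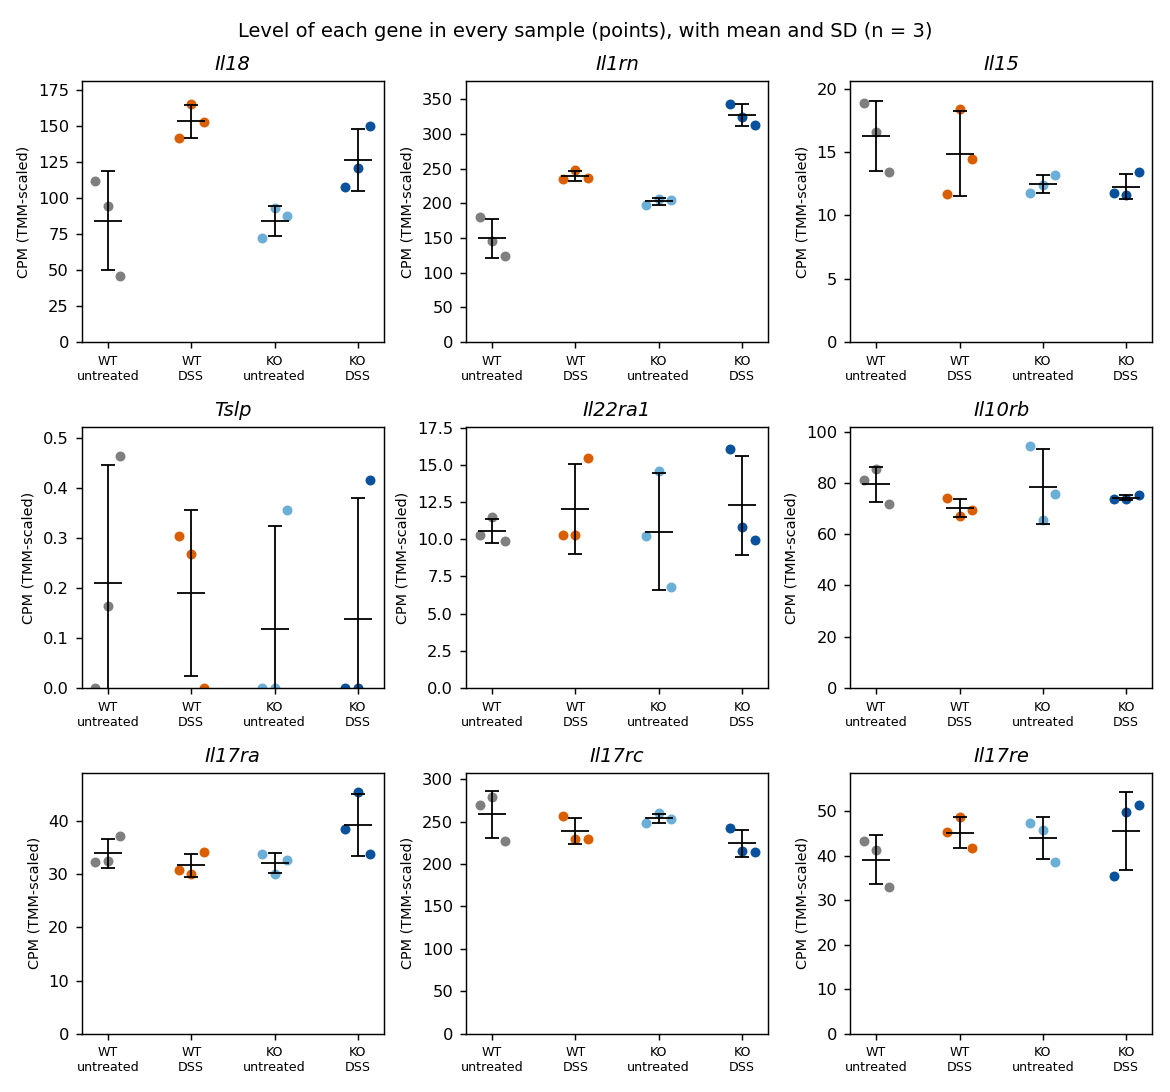
Level of each of the 9 genes in CPM (linear axes from 0) in every sample, by group, with points for samples and bars for mean and SD (n = 3). Il1rn separates all 4 groups, from 124 to 180 CPM in untreated WT up to 313 to 344 CPM in KO under DSS, Il18 is higher under DSS, and Tslp stays within 0 to 0.464 CPM.

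Il1rn was also higher in KO than in WT at either treatment, without passing the threshold in the separate comparisons. Its mean was 203 ± 5.41 CPM in untreated KO against 150 ± 28.0 CPM in untreated WT (SD, n = 3 each), a log2 difference of 0.44 (95% interval 0.18 to 0.69, edgeR adjusted p 0.0581). Under DSS the mean was 327 ± 15.5 CPM in KO against 240 ± 7.34 CPM in WT, a log2 difference of 0.45 (95% interval 0.20 to 0.70, edgeR adjusted p 0.0567). Averaged over both treatments, a contrast added after the values had been seen, the difference was 0.44 (SE 0.083, edgeR adjusted p 0.00612), and Il1rn passed in each of the 12 fits without 1 library. In that averaged contrast 5.95% of all 12522 tested genes passed, 3.07% higher and 2.88% lower. Without untreated WT replicate 1 the separate differences passed as well (0.58, edgeR adjusted p 0.00786, untreated, and 0.44, edgeR adjusted p 0.0162, under DSS). Without untreated WT replicate 3 the one under DSS passed (0.45, edgeR adjusted p 0.0120) and the untreated one did not (0.32, edgeR adjusted p 0.0956).

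Il1rn is on the plus strand of chromosome 2, from 24336853 to 24351494 (GRCm38, GENCODE M21; ENSMUSG00000026981.14 in the count tables). The gene is known to give secreted and intracellular forms from alternative starts, of which RefSeq lists 3, and gene-level counts do not separate them. The 120 bases before the first of these starts are shown because Il1rn is the gene that moved most clearly, followed by a short stretch before the last start, where capitals mark the only kappa-B match found at this gene. Kappa-B elements are the sites bound by NF-kB dimers. Both stretches are on the plus strand of GRCm38.p6, credited to RefSeq.
Il1rn, chr2:24336740-24336859: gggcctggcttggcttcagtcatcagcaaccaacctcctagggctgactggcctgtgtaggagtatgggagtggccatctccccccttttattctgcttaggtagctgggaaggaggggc
Il1rn, chr2:24345311-24345339: gaaatatgagGGTTTTTCCgcttctgaca
The searched letters were GGNNTTTCC on both strands over the 250 bases before a start, and 4.93% of the 32851 RefSeq promoters of that length held them. The match begins at position -50 from the start at 24345371, and it lies inside the transcript that begins at the neighbouring start at 24345291. A letter match is a description and not a site. The STAT element TTCNNNGAA (7.02% of promoters) and the interferon-stimulated response element GAAANNGAA (7.13%) were not found in these letters before any of the 3 starts.

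Markers of other cells differed between the groups as well. The summed level of 10 myeloid markers was 22.1 to 62.0 CPM in untreated WT, 52.0 to 57.9 CPM in WT under DSS, 55.9 to 81.3 CPM in untreated KO and 67.2 to 85.2 CPM in KO under DSS. Most of that sum was Ly6g in untreated WT and untreated KO, and the members did not move together. Ly6g, a neutrophil marker, had 15.9 to 57.1 CPM in untreated WT, 26.1 to 36.4 CPM in WT under DSS, 42.8 to 67.4 CPM in untreated KO and 15.6 to 28.7 CPM in KO under DSS, and was not called. Lyz2 had 0.618 to 2.04, 5.33 to 10.02, 4.98 to 7.13 and 18.8 to 30.2 CPM in the same order. Of the 6 myeloid markers tested, 3 were higher under DSS in WT (Lyz2, Adgre1 and Csf1r), and Lyz2 was the only one called in KO under DSS, in untreated KO against WT and in KO against WT under DSS. The macrophage marker Adgre1 was at 0 in every untreated WT library, and S100a8 and S100a9, also neutrophil markers, had at most 6 and 2 counts in any library. Ly6g had 88 to 552 counts, so these neutrophil markers disagreed, and the myeloid sum is not a measure of myeloid cells. All 6 colonocyte markers were lower under DSS in both genotypes. Their summed level was 10966 to 12288 CPM in untreated WT and 2863 to 3044 CPM in WT under DSS. It was 6782 to 7391 CPM in untreated KO and 2862 to 3445 CPM in KO under DSS. Between genotypes they did not move together: 1 was higher and 1 lower in untreated KO, and 3 higher and 0 lower under DSS. Car1, most of the sum in untreated WT, had 6062 to 8149 CPM there and 2403 to 2809 CPM in untreated KO. Car4 (380 to 643 against 870 to 922 CPM) and Aqp8 (179 to 407 against 465 to 491 CPM) went the other way. Goblet cell markers (5 listed) had a summed level of 18367 to 28889 CPM in untreated WT, 14217 to 16664 CPM in WT under DSS, 12701 to 14377 CPM in untreated KO and 25488 to 29802 CPM in KO under DSS, and with DSS 1 was called lower in WT and 3 higher in KO. Of 4 stem cell markers, 1 was lower with DSS in WT and 3 in KO. Of 9 tested lymphocyte markers, 2 were higher with DSS in WT, 0 with DSS in KO and 5 in untreated KO against WT. The part of these markers in the Il1rn and Il18 results was not tested, and in bulk samples fewer cells of a type cannot be told apart from less RNA per cell.

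Il18 was higher under DSS, with a called rise in WT. The untreated WT samples had 112, 94.8 and 45.9 CPM, and those of WT under DSS 142, 165 and 153 CPM. In untreated KO it stood at 72.4, 92.8 and 87.2 CPM, and in KO under DSS at 108, 121 and 150 CPM. Within each genotype all 3 DSS samples lay above all 3 untreated samples, and the low value of 45.9 CPM belonged to untreated WT replicate 3. The log2 fold change in WT was 0.86 (SE 0.24, 95% interval 0.35 to 1.38, edgeR adjusted p 0.0458). Without untreated WT replicate 3 it was 0.57 (edgeR adjusted p 0.0445), and without untreated WT replicate 1 the call was kept as well. It was lost in the other 10 of the 12 fits without 1 library, with an adjusted p of up to 0.145 (without replicate 2 of WT under DSS). In KO the log2 fold change was 0.59 (95% interval 0.08 to 1.10, edgeR adjusted p 0.232), and it passed without untreated WT replicate 3 (0.58, edgeR adjusted p 0.0258).

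Averaged over both genotypes, a contrast added after the values had been seen, the Il18 change with DSS was 0.72 (SE 0.17, edgeR adjusted p 0.0136) and the Il1rn change 0.68 (SE 0.083, edgeR adjusted p 9.11e-05). Both passed in each of the 12 fits without 1 library, and 8.92% of all tested genes passed in this contrast, 4.06% higher and 4.86% lower. KO and WT did not differ in Il18 past the threshold without DSS (log2 difference -0.0022, 95% interval -0.51 to 0.51) or with it (-0.28, 95% interval -0.79 to 0.23). The intervals leave room for differences of either sign. Il18 is on the plus strand of chromosome 9, from 50554827 to 50581840 (ENSMUSG00000039217.11), where the opposite-strand genes Bco2 and Tex12 overlap it without sharing exon bases. The bases before its RefSeq start, shown because Il18 too was called under DSS in WT, held none of the 3 sets of letters.
Il18, chr9:50554580-50554699: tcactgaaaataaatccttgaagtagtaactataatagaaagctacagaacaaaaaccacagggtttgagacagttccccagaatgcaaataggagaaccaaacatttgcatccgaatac

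Among the 8 genes tested, 2 passed under DSS in WT, both higher, against a background of 6.30% of all 12522 genes tested (2.80% higher, 3.50% lower). In KO 1 of 8 passed, against 3.92% (1.88% higher, 2.04% lower). None of the 8 passed the edgeR test for KO against WT untreated (background 3.48%, 1.72% higher and 1.76% lower) or under DSS (3.11%, 1.77% higher and 1.34% lower), with 1 gene at an unadjusted p under 0.05 in each. None passed for the difference between the DSS changes either (background 1.70%, 1.17% higher and 0.527% lower), with 0 genes at an unadjusted p under 0.05. DESeq2 called Il1rn in each of the 2 genotype comparisons, with adjusted p values of 0.0259 untreated and 0.0166 under DSS. The median log2 fold change of the 8 genes was 0.04 under DSS in WT and 0.14 in KO, against 0.0063 and 0.015 over all tested genes. The other 6 tested genes lay between -0.18 and 0.29 for DSS in either genotype.

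**Figure D2:**
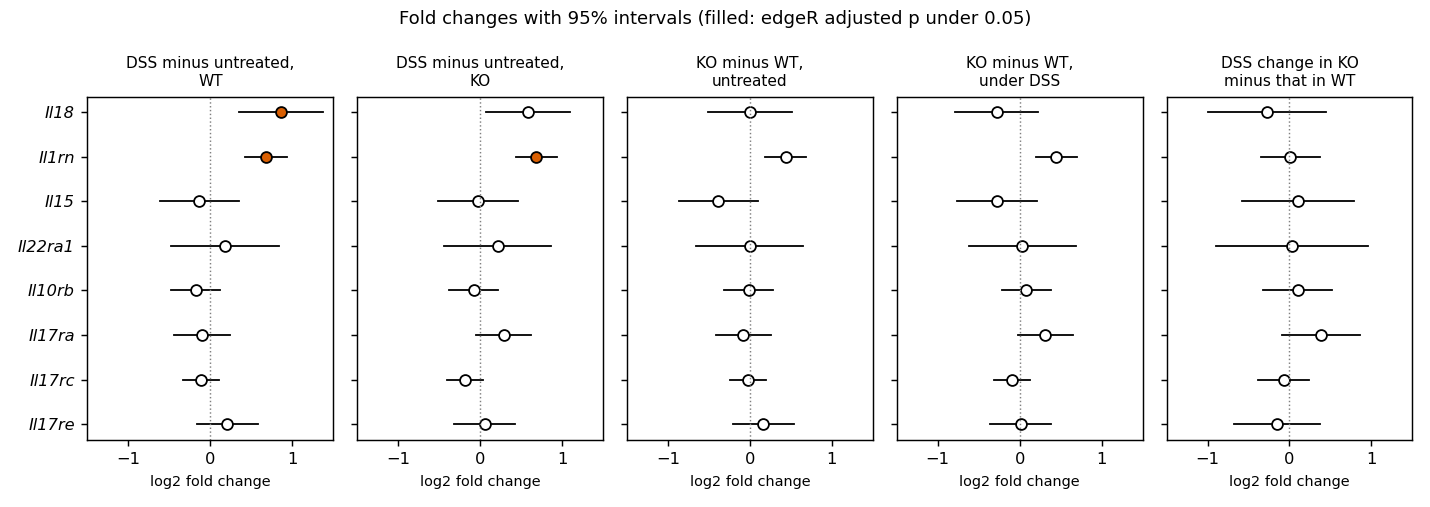
Log2 fold changes of the 8 tested genes with 95% intervals in 5 comparisons (linear axes, edgeR), filled points having an adjusted p under 0.05. Il1rn and Il18 are filled under DSS in WT, Il1rn alone in KO, and the intervals of the 5 receptor genes include 0 in every panel.

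Il15 had low and even levels. It stood at 18.9, 16.6 and 13.4 CPM in untreated WT, 11.7, 18.4 and 14.5 CPM in WT given DSS, 11.8, 12.4 and 13.2 CPM in untreated KO and 11.8, 11.6 and 13.4 CPM in KO under DSS. All 3 untreated KO values lay below all 3 untreated WT values, and the DSS groups overlapped. The log2 difference between untreated KO and WT was -0.38 (95% interval -0.87 to 0.10, edgeR adjusted p 0.470), and with DSS it was -0.28 (95% interval -0.76 to 0.21). Changes with DSS were -0.13 in WT (95% interval -0.61 to 0.35) and -0.02 in KO (95% interval -0.51 to 0.46). The gene lies on chromosome 8 from 82331632 to 82403222 on the minus strand (ENSMUSG00000031712.8).

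Tslp was at the floor. It had 0, 1 and 3 counts in untreated WT, 2, 2 and 0 in WT under DSS, 0, 0 and 3 in untreated KO, and 0, 0 and 3 in KO under DSS, or 14 counts in all 12 libraries. No library exceeded 0.464 CPM or rose above the floor of 3 counts. A fall, or a change within the floor, could not be detected at this depth, and no fold is given.

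The 5 receptor genes showed no call in any of the 5 comparisons. Il17rc, the chain that gives the IL-17A and IL-17F receptor its ligand specificity, had the most reads of the 9 genes in total (20329 against 19059 for Il1rn), while under DSS Il1rn had more, with 4858 against 4830 in WT and 6388 against 4372 in KO. It stood at 270, 279 and 227 CPM in untreated WT, 257, 230 and 230 CPM in WT given DSS, 249, 260 and 253 CPM in untreated KO and 243, 216 and 214 CPM in KO under DSS. All 3 KO samples under DSS lay below the 3 untreated KO samples by a small margin. The log2 fold change with DSS was -0.18 in KO (95% interval -0.40 to 0.04, edgeR adjusted p 0.436) and -0.11 in WT (95% interval -0.33 to 0.11). A fall to less than 0.758 of the untreated level in KO lies outside that interval.

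Il17ra, the chain shared by all IL-17 receptors, had 32.2, 32.5 and 37.1 CPM in the untreated WT samples and 30.8, 30.0 and 34.1 CPM in those of WT under DSS. In untreated KO it stood at 33.7, 30.0 and 32.7 CPM, and in KO under DSS at 38.4, 45.5 and 33.8 CPM. The KO samples under DSS were the highest on average and just cleared the untreated KO samples, while overlapping WT. The log2 fold change with DSS was 0.29 in KO (95% interval -0.047 to 0.62, edgeR adjusted p 0.408) against -0.10 in WT, and the difference between these changes was 0.39 (95% interval -0.086 to 0.87, edgeR adjusted p 0.603). Il17re, the chain for IL-17C, ranged from 32.9 CPM in untreated WT replicate 3 to 51.4 CPM in KO under DSS replicate 3. Its group means were 39.2 ± 5.51, 45.2 ± 3.46, 44.0 ± 4.69 and 45.6 ± 8.74 CPM (SD, n = 3) in untreated WT, WT under DSS, untreated KO and KO under DSS. The groups overlapped, and the log2 fold change with DSS was 0.21 in WT (95% interval -0.17 to 0.58) and 0.055 in KO (95% interval -0.32 to 0.43).

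Il17re and Il17rc are neighbours on chromosome 6, on the plus strand from 113458484 to 113470758 (ENSMUSG00000043088.15) and from 113471427 to 113483140 (ENSMUSG00000030281.15), with 668 bases between them. Il17ra is on the plus strand of the same chromosome, from 120463247 to 120487559 (ENSMUSG00000002897.4). A stretch before the RefSeq start of Il17rc held the other kappa-B match among the 7 RefSeq starts searched, which belong to 5 of the 9 genes (Il1rn, Il18, Il22ra1, Il17re and Il17rc). It is shown, plus strand of GRCm38.p6, with the match in capitals. The match is on the minus strand and begins 236 bases before the start, and Il17rc passed no test of DSS or genotype.
Il17rc, chr6:113471209-113471237: tacaggaagtGGAAACACCcggcatgcca

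Both chains of the IL-22 receptor were detected in every library. Il22ra1, which confines IL-22 responses to epithelial and other non-hematopoietic cells, had 57 to 120 counts per library. It stood at 10.3, 11.5 and 9.89 CPM in untreated WT, 10.3, 10.3 and 15.5 CPM in WT given DSS, 10.2, 14.6 and 6.77 CPM in untreated KO and 16.1, 10.8 and 9.98 CPM in KO under DSS. The groups overlapped throughout, and at this depth the intervals were wide: the log2 fold change with DSS was 0.18 in WT (95% interval -0.47 to 0.84) and 0.22 in KO (95% interval -0.44 to 0.87). Il10rb, the shared second chain, was steadier. Its group means were 79.4 ± 7.00, 70.2 ± 3.49, 78.6 ± 14.8 and 74.3 ± 0.968 CPM (SD, n = 3) in untreated WT, WT under DSS, untreated KO and KO under DSS, and the log2 fold change with DSS was -0.18 in WT (95% interval -0.48 to 0.12) and -0.081 in KO (95% interval -0.38 to 0.22). Il22ra1 lies on chromosome 4 from 135728172 to 135752140 (ENSMUSG00000037157.8) and Il10rb on chromosome 16 from 91406164 to 91425834 (ENSMUSG00000022969.12), both on the plus strand. Il10rb shares 569 exon bases with the annotated gene Gm21970, which had 0 counts in every library. The 0 counts do not show how reads over the shared bases were assigned, so Il10rb may have lost some of them.

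Across the 5 receptor genes the smallest adjusted p was 0.597 for DSS in WT, 0.408 for DSS in KO, 0.745 for KO against WT untreated, 0.395 for KO against WT under DSS and 0.603 for the difference between the DSS changes (edgeR). None had an unadjusted p under 0.05 in any of these comparisons, and DESeq2 called 0 of them, with a smallest adjusted p of 0.432. The 95% intervals spanned log2 values from -0.48 to 0.84 for DSS in WT and from -0.44 to 0.87 for DSS in KO, with Il22ra1 setting the upper ends.

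Per kilobase of merged exon length, which allows genes to be compared, Il18 and Il17rc were the most abundant of the 9. The mean over 12 libraries was 109 CPM per kb for Il18 (44.5 to 160), 91.3 for Il17rc (80.0 to 104), 41.5 for Il1rn (22.5 to 62.1) and 19.9 for Il10rb (17.2 to 24.9). Il17re followed at 7.41 CPM per kb (5.61 to 8.76), then Il15 at 6.19 (5.12 to 8.38), Il22ra1 at 4.42 (2.64 to 6.26), Il17ra at 3.95 (3.46 to 5.26) and Tslp at 0.123. The ranges of Il18 and Il17rc overlapped. Il18 reached down into the range of Il1rn, and Il1rn into that of Il10rb, through untreated WT replicate 3 alone. The ranges of Il17re, Il15, Il22ra1 and Il17ra overlapped from each to the next. Merged exon length joins alternative transcripts, which lowers the values of genes with many, Il1rn among them. Il17rc exceeded its partner chain Il17ra in every library, and the ratio of Il17rc to Il17ra per exon length was 24.9 ± 4.43, 24.6 ± 2.55, 25.7 ± 2.12 and 18.8 ± 2.95 (SD, n = 3) in untreated WT, WT under DSS, untreated KO and KO under DSS. Group means of the ratio of Il17re to Il17ra were 1.72 to 2.12, and those of Il10rb to Il22ra1 were 4.09 to 5.6.

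**Figure D3:**
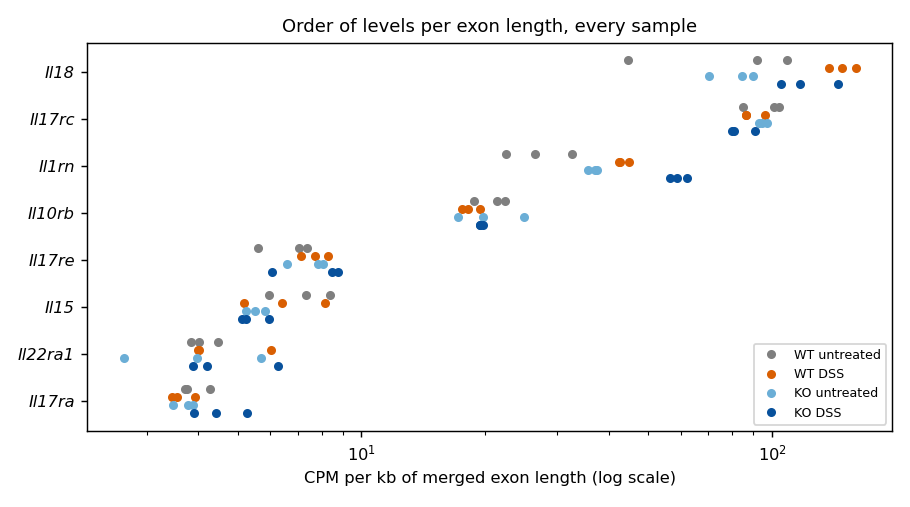
CPM per kilobase of merged exon length (log axis) for the 8 tested genes, 1 point per library, coloured by group. Il18 and Il17rc share the top with 44.5 to 160 CPM per kb, and Il17re, Il15, Il22ra1 and Il17ra form an overlapping group at 2.64 to 8.76.

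The partners of the cytokines were read from lists of pathway genes. The IL-1 family list held 14 genes, 7 of them tested. Il18bp, the secreted decoy that binds IL-18, had 52.2, 50.9 and 55.5 CPM in the untreated WT samples and 91.0, 95.7 and 135 CPM in those of WT under DSS. In untreated KO it had 44.7, 56.8 and 55.1 CPM, and in KO under DSS 52.5, 57.1 and 49.9 CPM. WT under DSS stood above all other samples, and the other 3 groups overlapped. The Il18bp rise with DSS in WT was 1.02 on the log2 scale (SE 0.16, edgeR adjusted p 0.000992), its change in KO was 0.026, and it was lower in KO than in WT under DSS (-1.01, SE 0.16, edgeR adjusted p 0.00284). The difference between the DSS changes was -0.99 (edgeR adjusted p 0.0380), a call lost in 8 of the 12 fits without 1 library, with an adjusted p of up to 0.111 (without untreated KO replicate 3). The ratio of Il18 to Il18bp per exon length was 4.74 ± 2.04, 4.32 ± 0.90, 4.73 ± 0.080 and 7.02 ± 1.55 (SD, n = 3) in untreated WT, WT under DSS, untreated KO and KO under DSS, with overlap between the last group and untreated WT and no test made.

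Il1b, the agonist that the Il1rn product opposes, was low. It had 1.75, 0.49 and 0.93 CPM in untreated WT, 5.47, 1.33 and 1.63 CPM in WT given DSS, 0.81, 3.05 and 1.90 CPM in untreated KO and 11, 6.23 and 18.0 CPM in KO under DSS. KO under DSS was highest, and the other groups overlapped. The ratio of Il1rn to Il1b per exon length was 61.3 ± 35.8, 42.9 ± 25.4, 48.2 ± 31.8 and 11.6 ± 6.02 (SD, n = 3) in untreated WT, WT under DSS, untreated KO and KO under DSS. Since Il1b had 12, 3 and 6 counts in untreated WT, at or near the floor of 3 counts in part, these ratios are imprecise. KO under DSS (5.98 to 17.9) overlapped WT under DSS (14.8 to 64.2), and no test was made. The Il1b rise in KO, by 2.59 on the log2 scale (SE 0.63, edgeR adjusted p 0.0327), was lost in 5 of the 12 fits without 1 library, with an adjusted p of up to 0.151 (without replicate 3 of KO under DSS), and with replicate number as a block (edgeR adjusted p 0.0761). In the same group the myeloid markers Lyz2 (18.8 to 30.2 CPM) and Csf1r (8.16 to 12.4 CPM) were at their highest, while Ly6g had 15.6 to 28.7 CPM against 42.8 to 67.4 CPM in untreated KO. Their part was not tested. The median log2 fold change of the list was 0.0045 in WT and 0.23 in KO under DSS, against 0.0063 and 0.015 over all tested genes.

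**Figure D4:**
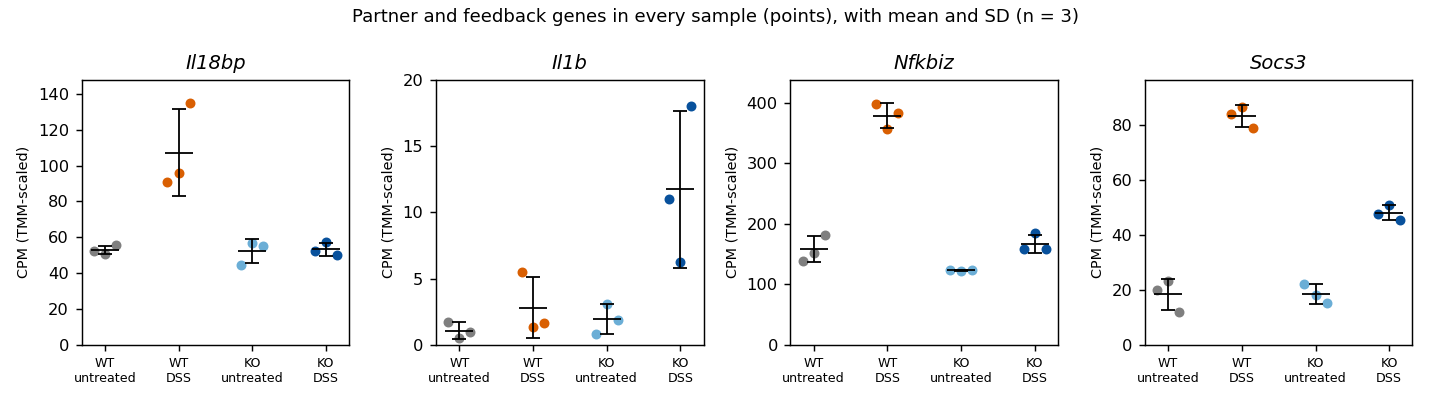
CPM of Il18bp, Il1b, Nfkbiz and Socs3 in every sample (linear axes from 0), with mean and SD (n = 3) by group. Il18bp and Nfkbiz are highest in WT under DSS, at 91.0 to 135 and 356 to 397 CPM, Il1b is highest in KO under DSS, and Socs3 is higher under DSS in both genotypes.

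Of 8 genes for IL-18 processing, 7 were tested and none passed the edgeR test under DSS in WT or for KO against WT untreated, with 2 at an unadjusted p under 0.05 in each and 1 and 0 called by DESeq2. Casp1, which cleaves the IL-18 precursor, had group means of 336, 339, 325 and 321 CPM in untreated WT, WT under DSS, untreated KO and KO under DSS. Casp4, an inflammatory caspase that senses lipopolysaccharide, rose in KO by 0.55 on the log2 scale (edgeR adjusted p 0.0440), and Nlrc4, an inflammasome sensor, was lower in KO than in WT under DSS (-0.56, edgeR adjusted p 0.0483). The Casp4 call was lost in 9 of the 12 fits without 1 library (adjusted p up to 0.185, without untreated KO replicate 1) and with replicate number as a block (0.0666), and the Nlrc4 call in 8 of them (adjusted p up to 0.172, without replicate 1 of WT under DSS) and without a filter on low counts (0.0775). The list's median log2 fold change was 0.24 in WT and 0.071 in KO under DSS. For IL-15 and TSLP, 4 of 6 receptor and related genes were tested. The IL-15 receptor chain Il2rb was higher in KO than in WT without DSS (log2 difference 3.13, SE 0.49, edgeR adjusted p 0.00230) and with it (2.49, SE 0.43, edgeR adjusted p 0.00546), with 0.31 to 1.48 CPM in untreated WT and 6.53 to 7.57 CPM in untreated KO. In untreated WT it had 4, 9 and 2 counts, in part under or near the floor of 3 counts, so the size of the untreated difference is imprecise. Il2rg, the common cytokine receptor chain, was higher in untreated KO (2.5, edgeR adjusted p 0.0356), a call lost in 8 of the 12 fits (adjusted p up to 0.173, without untreated KO replicate 3). It had 10, 2 and 2 counts in untreated WT, in part under the floor of 3 counts, and 21, 24 and 55 in untreated KO. Both chains are carried mainly by lymphocytes. The summed level of 12 lymphocyte markers moved with them, from 54.5 to 85.3 CPM in untreated WT to 108 to 124 CPM in untreated KO, and 5 of the 9 tested were higher there. Under DSS the sum was 86.8 to 105 CPM in WT and 118 to 145 CPM in KO, with 1 of the 9 higher and 1 lower in KO. Their part was not tested. The list's median log2 difference was 1.47 untreated and 1.18 under DSS, against -0.0015 and 0.0027 over all tested genes.

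The ligands of the receptors were scarcely present. Of 8 IL-17 ligands and further receptor chains, only Il17rb and Il17rd had enough reads to be tested, and neither passed the edgeR test in any of the 5 comparisons, with 0 at an unadjusted p under 0.05 and 0 called by DESeq2. Il17b and Il25 had 0 counts in every library, Il17a, Il17d and Il17f at most 2, 2 and 5 counts in any library, and the epithelial Il17c 0 to 8 counts. Of 12 ligands and further receptor chains of the IL-10 and IL-22 family, 3 were tested (Il10ra, Il20rb and Ifnlr1) and none passed the edgeR test, with 1 at an unadjusted p under 0.05 for DSS in KO, 1 for KO against WT untreated, and 0 called by DESeq2 in any of the 5 comparisons. Il22 had 0 counts in all 12 libraries, which allows up to the floor of 0.356 to 0.530 CPM in a library.

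Signalling genes below the IL-17 receptors moved in part. Of 13 listed, 12 were tested, and 3 rose with DSS in WT: Nfkbiz (by 1.26 in log2, SE 0.11, edgeR adjusted p 5.15e-06), Zc3h12a (1.17, edgeR adjusted p 0.00443) and Tnfaip3 (1.14, edgeR adjusted p 0.000174). Nfkbiz encodes the nuclear co-activator IκBζ, and Zc3h12a and Tnfaip3 encode the feedback inhibitors Regnase-1 and A20. Nfkbiz stood at 139, 152 and 181 CPM in untreated WT, 397, 356 and 382 CPM in WT given DSS, 123, 122 and 123 CPM in untreated KO and 158, 184 and 158 CPM in KO under DSS. WT under DSS stood clear of every other sample. In KO it was the only gene of the list called (0.44, edgeR adjusted p 0.0390), and this was lost in 9 of the 12 fits without 1 library (adjusted p up to 0.178, without replicate 2 of KO under DSS) and with replicate number as a block (0.0640). Under DSS it was lower in KO than in WT (-1.18, SE 0.11, edgeR adjusted p 2.89e-05), and its DSS change was smaller in KO (difference -0.82, SE 0.16, edgeR adjusted p 0.0119). Zc3h12a and Tnfaip3, not called in KO, did not pass the test of the difference between the DSS changes. Zc3h12a had 13.9 to 15.2 CPM in untreated KO and 20.8 to 27.2 CPM in KO under DSS, and Tnfaip3 118 to 134 and 140 to 174 CPM. Averaged over both genotypes both passed with DSS, at 0.92 (edgeR adjusted p 0.00142) and 0.75 (edgeR adjusted p 0.000242). The adaptor Act1, encoded by Traf3ip2, had means of 38.7 to 48.6 CPM over the 4 groups and passed no test. The list's median log2 fold change was 0.27 in WT and 0.26 in KO. Of all tested genes, 2.80% were called higher with DSS in WT and 1.88% in KO.

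Below the IL-22 receptor, 3 of 5 JAK-STAT genes rose with DSS in WT and 3 in KO, against 2.80% and 1.88% of all tested genes. Socs3, the feedback inhibitor induced by STAT3, stood at 19.8, 23.1 and 12.1 CPM in untreated WT, 84.3, 86.9 and 78.9 CPM in WT given DSS, 22.3, 18.1 and 15.3 CPM in untreated KO and 47.7, 51.0 and 45.6 CPM in KO under DSS. The DSS samples of each genotype stood above all untreated samples, and those of WT above those of KO. Its rise on the log2 scale was 2.19 in WT, with an SE of 0.21 (edgeR adjusted p 1.24e-05), and 1.37 in KO, also with an SE of 0.21 (edgeR adjusted p 0.00179). The lower level in KO under DSS (-0.79, edgeR adjusted p 0.0483) was lost in 9 of the 12 fits without 1 library, with an adjusted p of up to 0.159 (without replicate 3 of KO under DSS). Socs1 rose by 1.67 in WT and 1.52 in KO, and Stat3 by 0.39 and 0.41. The KO calls of Socs1 and Stat3 were lost in 4 and 5 of the 12 fits (adjusted p up to 0.104 without untreated KO replicate 2, and 0.108 without untreated KO replicate 3), and that of Stat3 in WT in 3 (up to 0.0802, without replicate 3 of WT under DSS). Without a filter on low counts Stat3 did not pass in KO (adjusted p 0.0571). The kinases Jak1 and Tyk2 passed no test. Medians of the list were 0.39 in WT and 0.41 in KO under DSS, in log2 units.

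Genes known as epithelial targets of IL-17 and IL-22 include chemokines, antimicrobial proteins and oxidases. Of 18 listed, 15 were tested, and 8 rose with DSS in WT, while in KO 2 rose and 1 fell. Of all tested genes, 2.80% were called higher and 3.50% lower with DSS in WT, and 1.88% and 2.04% in KO. The median log2 fold change of the 15 was 1.81 in WT and 0.23 in KO. By size, the WT calls were led by the chemokine genes Cxcl5 (3.57) and Cxcl1 (3.21) and the mucin gene Muc1 (3.12). This leaves aside Lcn2, a siderophore-binding protein gene. Cxcl5 had 2, 7 and 2 counts in untreated WT and 60, 45 and 36 in WT under DSS. Its fold is imprecise, since the untreated values were under or near the floor of 3 counts. Cxcl1 had 7, 6 and 7 counts in untreated WT and 63, 75 and 58 in WT under DSS. Lcn2 had 1, 1 and 0 counts in untreated WT, all under the floor, and 11, 21 and 20 in WT under DSS, so no fold is given. Its call (edgeR adjusted p 0.0403) was lost in 8 of the 12 fits without 1 library (up to 0.134, without replicate 3 of WT under DSS). In KO the oxidase maturation factor Duoxa2 rose by 1.03 (edgeR adjusted p 0.00446) and the metalloreductase Steap4 by 0.90 (edgeR adjusted p 0.0261), the latter lost in 5 of the 12 fits (up to 0.128, without untreated KO replicate 3), and the NADPH oxidase gene Nox1 fell by 1.27 on the log2 scale (edgeR adjusted p 0.00905).

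**Figure D5:**
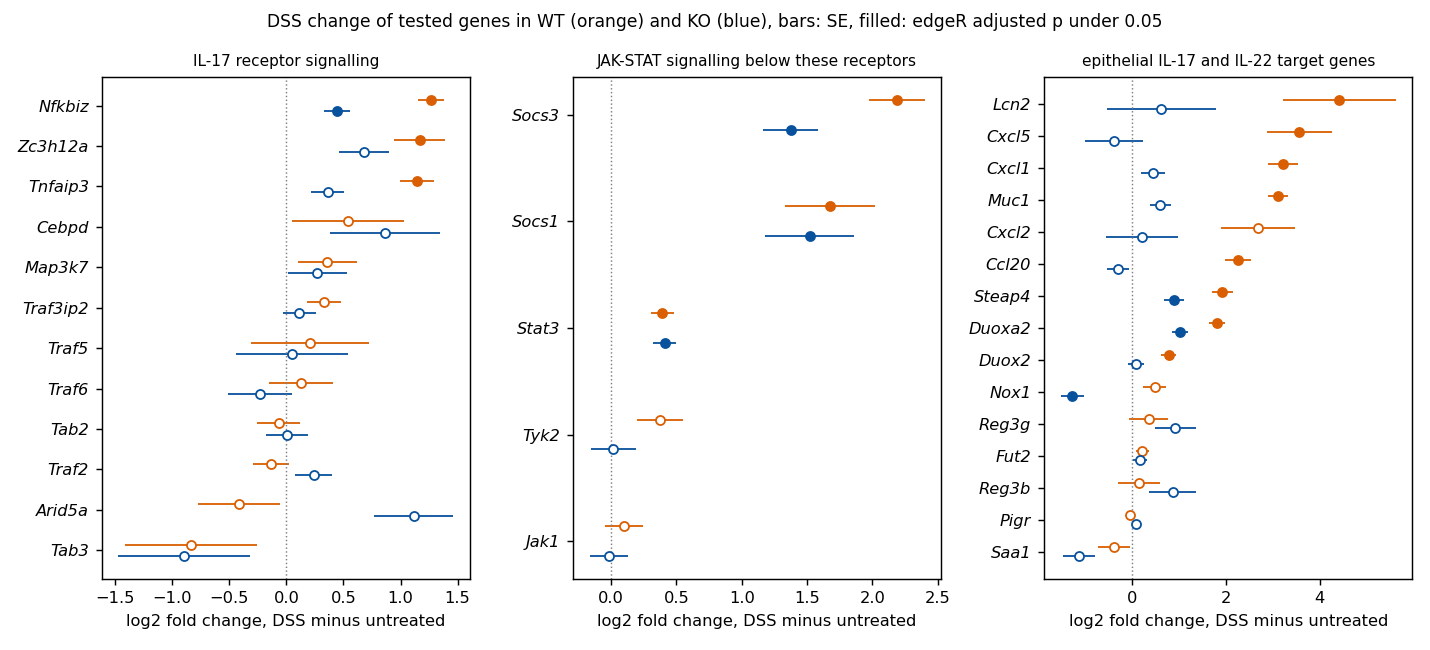
Log2 fold change with DSS (linear axes) of the tested genes of 3 pathway lists, WT in orange and KO in blue, with bars for the SE and filled points for an edgeR adjusted p under 0.05. Cxcl5, Cxcl1, Muc1 and Ccl20 lie at 2.26 to 3.57 in WT and at -0.38 to 0.61 in KO. The point of Lcn2 in WT is a fitted value against libraries with 1, 1 and 0 counts, and that of Cxcl5 against libraries with 2, 7 and 2.

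Between genotypes, 4 of the 15 target genes were higher and 2 lower in untreated KO, against 1.72% higher and 1.76% lower over all tested genes. The chemokine genes Ccl20 (log2 difference 3.49, edgeR adjusted p 5.09e-06) and Cxcl1 (3.30, edgeR adjusted p 2.43e-05) were higher, as were Nox1 (1.32, edgeR adjusted p 0.00694) and Steap4 (1.16, edgeR adjusted p 0.00839), and the antimicrobial lectin genes Reg3b (-3.87, edgeR adjusted p 0.000566) and Reg3g (-1.69, edgeR adjusted p 0.0446) were lower. Without untreated WT replicate 3 the Reg3b difference was -2.70 and still passed. Reg3g rests on that library: without it the difference was -0.67 (edgeR adjusted p 0.0888), and the call was lost in 10 of the 12 fits in all (up to 0.159, without untreated KO replicate 1). Under DSS 1 was higher in KO, Ccl20 (0.93, edgeR adjusted p 0.0498), and 5 were lower, against 1.77% higher and 1.34% lower over all tested genes. The lower ones were Reg3b (-3.16, edgeR adjusted p 0.00264), Muc1 (-2.85, edgeR adjusted p 3.57e-06), Duoxa2 (-1.42, edgeR adjusted p 0.000291), Duox2 (-0.997, edgeR adjusted p 0.00375) and the fucosyltransferase gene Fut2 (-0.58, edgeR adjusted p 0.0452). The Ccl20 call under DSS was lost in 10 of the 12 fits without 1 library (up to 0.184, without replicate 3 of WT under DSS) and without a filter on low counts (0.0721), and the Fut2 call in 9 (up to 0.156, without replicate 1 of WT under DSS). Ccl20 stood at 1.89, 2.79 and 1.55 CPM in untreated WT, 11.7, 9.47 and 8.81 CPM in WT given DSS, 21.9, 28.4 and 19.7 CPM in untreated KO and 20.0, 19.4 and 17.7 CPM in KO under DSS. All 6 KO values lay above all 6 WT values. The list's median log2 difference was 0.66 untreated and -0.997 under DSS. Pigr, the antibody transporter induced by IL-17, had group means of 7159 to 7897 CPM and passed no test.

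Over the 12 libraries, the tested genes whose log2 CPM most resembled that of Il1rn, among the 8989 genes whose mean log2 CPM was 3 or more, were Gas6, a ligand of TAM receptor kinases (Pearson r = 0.968), and Aoc1, the histamine-degrading diamine oxidase (r = 0.967). Aoc1 had group means of 393 ± 41.6, 516 ± 22.9, 513 ± 13.9 and 757 ± 25.0 CPM (SD, n = 3) in untreated WT, WT under DSS, untreated KO and KO under DSS. For Il18 they were Atp2a3, a calcium pump of the endoplasmic reticulum (r = 0.947), and AW112010 (r = 0.939), which had group means of 93.2 ± 20.5, 206 ± 25.7, 108 ± 23.3 and 166 ± 36.3 CPM. These correlations describe samples that share groups and libraries, and carry no test.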

How the data were processed

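The 12 libraries were made with SMART-seq2 chemistry, per the labels' protocols; it keeps neither strand nor molecular identifiers. The authors deposited whole-number counts of reads per gene, 1 table per sample, with no normalization as far as the values show. STAR 2.5.2b, featureCounts 1.5.0 and the builds GRCm38 and mm10 are named, per the submitters' processing notes, and the annotation release is not given in the sources used here. Since counting used no stated strand, reads of overlapping genes cannot be told apart.

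Symbols, coordinates and merged exon lengths were taken from GENCODE M21 by gene ID without version, which matched 46005 of 46517 IDs. Genes were kept by filterByExpr (12522 genes, 99.8% of counts), libraries scaled by TMM, and 1 coefficient fitted per group over all 12 libraries in edgeR 4.0.16 (R 4.3.3; common biological coefficient of variation 0.227). Contrasts were tested by two-sided quasi-likelihood F tests with Benjamini-Hochberg adjustment over all tested genes (threshold 0.05). A fold change is "called" or said to pass below that threshold. Log2 CPM used a prior count of 2. Besides the 5 contrasts, 2 averaged ones were added after the data had been seen. The script was tested on simulated counts. The members and gene lists were chosen with earlier results of these data known, so no list count is independent evidence. Named genes were all 9 members, up to 4 called genes of largest absolute log2 fold change per list and contrast, the 2 genes most correlated with each called member, Nfkb2 and the defining cell markers. Il18bp, Il1b, Nfkbiz, Socs3 and Ccl20 were chosen for per-sample values, and Casp1, Traf3ip2, Jak1, Tyk2, Pigr, Fut2, Ccl20 under DSS, Nox1 and Steap4 in untreated KO and further markers for naming, after their values were seen. Il36 genes were matched through RefSeq synonyms. One gene of the JAK-STAT list is not reported here and was left out of that list's counts and median.

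No replicate pair agreed within sampling noise (chi-square per degree of freedom 6.51 to 27.0), so each library counted once. Titles number the samples 1 to 3 in each group. Deviations from group means correlated between same-numbered libraries by 0.106 to 0.204 for DSS in KO, which meets the rule for pairing (above 0.1 in every pair), so blocked values stand beside calls that it changes there. Alternatives were DESeq2 size factors in edgeR, DESeq2 1.42.0, no filter on low counts, the replicate block and leaving out each library. Promoter letters came from RefSeq on GRCm38.p6, in which Il15, Il10rb and Il17ra were not matched. Tslp was left out of the search.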

Additional observations from a re-analysis of the deposited data

Results flagged for a closer look

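Among the pathway genes, 7 had DSS changes that differed between WT and KO by the test of the difference itself (DSS change in KO minus that in WT, log2, edgeR quasi-likelihood test). Of all 12522 tested genes, 1.70% passed in this comparison, 1.17% higher and 0.527% lower. The lists were chosen with earlier results of these data known, so the count of 7 is not independent evidence. Of the 7, the largest difference was that of the chemokine gene Cxcl5, at -3.94 (edgeR adjusted p 0.0463), with 3.57 in WT and -0.38 in KO. This call was lost in 10 of 12 fits without 1 library (adjusted p up to 0.154, without replicate 1 of WT under DSS). Cxcl5 had 2, 7 and 2 counts in untreated WT, under or near the floor of 3 counts, so its size is imprecise. The chemokine genes Cxcl1 and Ccl20 differed by -2.75 (edgeR adjusted p 0.00187) and -2.56 (edgeR adjusted p 0.00130), and both started from a higher level in untreated KO. Muc1 differed by -2.51 (edgeR adjusted p 0.000408), with 3.12 in WT and 0.61 in KO. Nox1 differed by -1.75 (edgeR adjusted p 0.0138), with 0.49 in WT and -1.27 in KO. For the decoy receptor gene Il18bp the difference was -0.99 (edgeR adjusted p 0.0380), and for Nfkbiz it was -0.82 (edgeR adjusted p 0.0119). None of the 8 tested cytokine and receptor genes differed in this way past the threshold (smallest edgeR adjusted p 0.603, for Il17ra).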

How the results depend on the processing

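No call of a named gene changed direction under any alternative. The balance of higher and lower calls over all genes did: 49.3% of calls were higher for KO against WT untreated and 55.6% without a filter on low counts, and 51.5% in the averaged genotype contrast and 48.9% with DESeq2 size factors. The median over all tested genes lay within -0.021 to 0.018 (log2) in these settings and took both signs in 4 contrasts. Without a filter on low counts, genes past the threshold numbered 776 for DSS in KO, 703 for KO against WT untreated, 642 for KO against WT under DSS and 356 for the difference between the DSS changes, against 491, 436, 390 and 213. Under DESeq2 these were 779, 736, 637 and 354. Of the 8 tested cytokine and receptor genes, 2 passed for DSS in KO without the filter (Il18 was added), and 1, Il1rn, passed for KO against WT untreated and for KO against WT under DSS, both without the filter and with DESeq2. With replicate number as a block, 1 passed for DSS in WT, since Il18 had an adjusted p of 0.0782. The numbers do not pair the WT samples or the genotypes (correlations of same-numbered deviations 0.014 to 0.128, -0.175 to -0.053 and -0.117 to -0.010). For DSS in KO the block left 409 genes. Outside DSS in KO, the block also ended the calls of Lcn2 for DSS in WT, Reg3g and Il2rg for KO against WT untreated, Ccl20, Nlrc4 and Fut2 for KO against WT under DSS, and Cxcl5 and Il18bp for the difference between DSS changes. Leaving out 1 library gave 483 to 958 genes for DSS in WT, 235 to 710 for DSS in KO, 212 to 725 and 160 to 566 for KO against WT untreated and under DSS, and 152 to 350 for the difference between DSS changes. The averaged contrasts gave 827 to 1300 genes for DSS and 486 to 1000 for genotype. Among the cytokine and receptor genes it gave 1 to 2, 1 to 2, 0 to 1, 0 to 1 and 0 to 0 in the same order, and 2 to 2 and 1 to 1 in the averaged contrasts. The Nfkb2 difference stayed within -1.38 to -1.23. Depth limits Tslp, which lay at the floor, and the ligands of the receptors, which had at most 14 counts in any library (Il10). It also limits Il22ra1, whose intervals were the widest of the receptors. With 3 samples per group, a printed interval that includes 0 leaves room for a difference of either sign.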
